A study of Mus musculus with 28 samples.

Results

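Mouse embryonic stem (ES) cells lacking Dicer that carried DICER1 with the substitution D1709A were compared with the same cells carrying wild-type DICER1, across all genes. The 8 arrays were chosen by their titles, 4 labelled D1709A and 4 labelled wild-type DICER1, of 28 arrays in all. Every group used here was Dicer-/- and carried its transgene in the pLD-puro-ENvA vector: DICER1 D1709A (n = 4), DICER1 E1705K (n = 3), DICER1 D1810Y (n = 3), wild-type DICER1 (n = 4) and the eGFP vector as the control without DICER1 (n = 3). The cells were grown in ES medium and collected in log phase, and their messenger RNA was profiled on Affymetrix Mouse Gene ST arrays. The labels name no clone, no culture and no species of the transgene. They do not say that arrays of a group came from separate cultures, so the p-values below reflect the spread from array to array, part or all of which may be technical. Values are log2 expression values, on which a difference of 1.0 is a 2-fold change, and the number of arrays limits their precision.

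DICER1 cuts hairpin precursors into mature microRNAs (miRNAs), which lower the level of messenger RNAs that match their seed, the bases 2 to 8. Its RNase IIIa domain makes the cut that frees the strand from the 3-prime arm of the hairpin, and its RNase IIIb domain makes the cut that frees the strand from the 5-prime arm. D1709, E1705 and D1810 are metal-binding residues of the RNase IIIb domain. In mouse ES cells the abundant miR-290 and miR-302 families act mainly through strands of the 3-prime arm, while let-7, miR-17 and miR-16 come from the 5-prime arm.

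The arm is shown on the miR-302b precursor, whose probe set is described further on. The hairpin lies at chr3:127545228-127545301 (GRCm38.p6, plus strand), and capitals mark its 5-prime and then its 3-prime mature strand. The sequence is from RefSeq.
Mir302b: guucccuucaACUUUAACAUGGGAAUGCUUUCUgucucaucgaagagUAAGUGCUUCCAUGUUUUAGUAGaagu

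Mature strands of the miRNA families of the 4 target lists used here are shown with the seed in capitals. Only miR-302b-5p, the other strand of its hairpin, is behind none of the lists. The lists hold reported targets, and seed matches were not searched. The strands are from RefSeq (GRCm38.p6), at chr3:127545238-127545260 and chr3:127545275-127545297 (plus strand), chr7:3220691-3220712 (plus), chr14:115043684-115043706 (plus), chr13:48538239-48538260 (minus) and chr3:69009918-69009939 (plus).
miR-302b-5p: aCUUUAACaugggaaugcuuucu
miR-302b-3p: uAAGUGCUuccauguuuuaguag
miR-294-3p: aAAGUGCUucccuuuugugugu
miR-17-5p: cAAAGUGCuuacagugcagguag
let-7a-5p: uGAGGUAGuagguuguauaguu
miR-16-5p: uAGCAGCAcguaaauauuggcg
miR-302b-3p and miR-294-3p, both of the 3-prime arm, have the same seed. The seed of miR-17-5p holds the same letters shifted by 1 base, and the other strands have seeds of their own.

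The arrays numbered 4 stood apart in both groups. Over all probe sets the deviation of D1709A array 4 from the mean of D1709A arrays 1 to 3 was the negative of that of wild-type array 4, and the sums were 0 within 1.33e-04. The arrays 4 therefore hold 1 free value per gene, the difference between them. Across 13956 genes the differences in arrays 1, 2 and 3 had pairwise correlations of 0.89 to 0.92, while the difference in arrays 4 had a correlation of 0.094 with the mean difference in arrays 1 to 3. A test of the difference between the array sets called 7471 genes (53.5%), of which 520 (3.73%) differed at least 2-fold. With 1 array numbered 4 per group, that test takes its spread from arrays 1 to 3 only and does not measure variation between array sets. Values for arrays 1 to 3 and for arrays 4 are given as well for named genes that changed against wild-type, unless all array values are printed. This was done where the signs of the sets differed or 1 difference was over 3 times the other. Array medians lay between 7.19 and 7.24, and the median SD of a gene was 0.0891 within D1709A and 0.0877 within wild-type DICER1, or 0.0525 and 0.0444 in arrays 1 to 3.

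**Figure D1:**
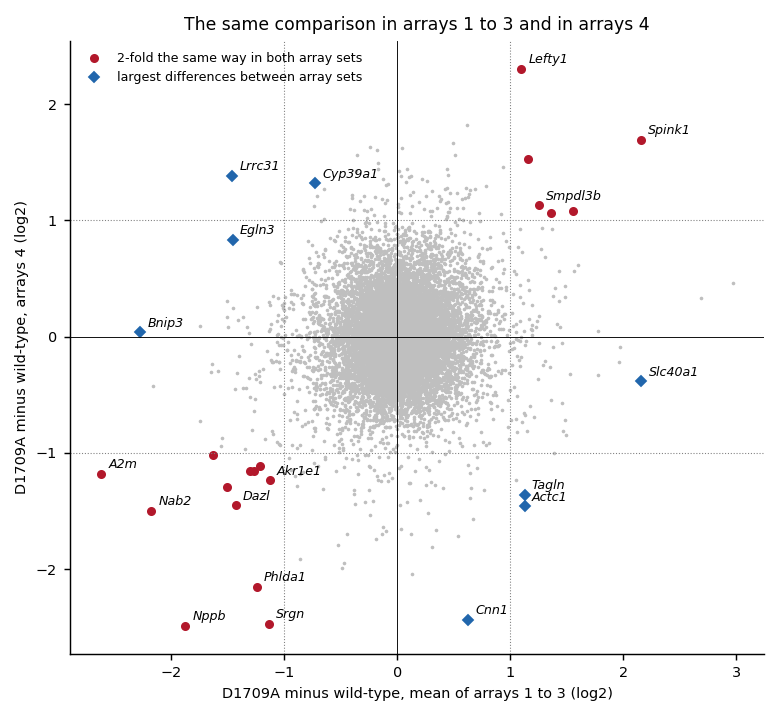
Each grey point is a gene, with the D1709A minus wild-type difference (log2) in arrays 1 to 3 on the horizontal axis and in arrays 4 on the vertical axis, and dotted lines mark 2-fold. The 18 red points changed at least 2-fold the same way in both sets, and the 8 blue diamonds are the named genes with the largest differences between the sets.

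The cells carried the markers of ES cells in both groups. All 7 ES markers on the array lay above the expression filter at 6.42, and their mean level was 12.27 to 12.30 in D1709A arrays and 12.30 to 12.35 in wild-type arrays. Markers of fibroblasts or feeder cells averaged 6.83 to 6.89 in D1709A arrays and 6.95 to 7.02 in wild-type arrays. Of these 16 markers, S100a4, Fap, Postn, Lum and Dcn lay under the filter, and of the 11 tested 0 rose and 3 fell (Col1a2, Pdgfra and Pdgfrb, by 0.23, 0.24 and 0.34). That was 27.3% of those tested, beside 37.6% of all genes (threshold given below). The filter applies to the mean of all 28 arrays. Postn, a matrix protein of fibroblasts, failed it and was not tested, but was at 5.66 ± 0.65 in D1709A and 7.21 ± 0.64 in wild-type DICER1 (SD, n = 4 each), with overlapping groups, and at 4.81 with the eGFP vector. Pdgfrb differed by -0.53 in arrays 1 to 3 and 0.22 in arrays 4. The part of this in the matrix genes below was not tested. In bulk samples fewer cells of a type and less RNA per cell cannot be told apart.

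Dicer1, the gene removed from these cells, read 9.25, 9.29, 9.24 and 9.08 in D1709A arrays 1 to 4 and 9.26, 9.26, 9.27 and 9.44 in wild-type arrays. The groups overlapped, and the difference of -0.092 (SE, 0.063) was not called (adjusted p = 0.281 in limma). The difference was -0.0013 in arrays 1 to 3 and -0.36 in arrays 4. With the eGFP vector, which holds no DICER1, the mean was 9.39 (9.28 to 9.45), beside means of 9.22 in D1709A and 9.31 in wild-type DICER1. The mean reading was thus not higher with a DICER1 transgene than without it. No source used here says whether this mouse probe set reads the transgene, so transgene levels were not compared.

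At an adjusted p under 0.05 in the 8 arrays, 5252 of 13956 genes (37.6%) passed and are referred to as called. In D1709A, 2667 (19.11%) were higher and 2585 (18.52%) lower. After subtraction of the median of each array, the split was 3042 higher and 2122 lower. Large changes were few, with 81 genes (0.580%) called and changed at least 2-fold, 33 higher and 48 lower. The 4 D1709A arrays did not overlap the 4 wild-type arrays for 4713 genes (33.8%), 2335 above and 2378 below. In arrays 1 to 3 alone 8636 genes (61.9%) were called, 4492 higher (32.19%) and 4144 lower (29.69%), of which 189 changed at least 2-fold. Centred in the same way, 5193 were higher and 3389 lower in arrays 1 to 3.

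The direction of a difference was shared between the array sets for 7234 genes (51.8%). Among called genes, which had to differ over all 8 arrays, 4337 (82.6%) had the same sign in both. The call itself favours a shared sign, so such counts among called genes are no separate support. Of the 81 genes changed 2-fold, 67 had the same sign and 14 the opposite sign in arrays 4. A difference of at least 2-fold was seen in arrays 1 to 3 for 189 genes, in arrays 4 for 197, and in both the same way for 18 (0.129%), while 5 changed 2-fold in opposite directions. The 18 are named here after their values were seen. Spink1, Hpdl, Lefty1, Dapp1, Mir363 and Smpdl3b were higher in D1709A, and A2m, Nppb, Nab2, Pla2g4c, Phlda1, Srgn, Slc30a1, Dazl, Hbegf, Stag3, Rpl39l and Akr1e1 were lower.

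Among the genes ranked here, which leave out miRNA genes and those with opposite signs in the array sets, the largest rise was in Spink1, which encodes a secreted inhibitor of trypsin. It read 8.16, 8.46, 8.32 and 8.08 in D1709A arrays and 6.33, 6.10, 6.03 and 6.39 in wild-type arrays, a difference of 2.04 (SE, 0.11, adjusted p = 7.62e-06 in limma). All 4 D1709A arrays lay above all 4 wild-type arrays, whose values were under the filter level. With the eGFP vector it was at 5.35 ± 0.15 (SD, n = 3), lower than with wild-type DICER1.

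Hpdl, a mitochondrial dioxygenase-like gene, and Smpdl3b, a sphingomyelinase-like phosphodiesterase, rose in both array sets. Hpdl read 9.59, 9.52, 9.55 and 9.32 in D1709A arrays and 7.96, 7.97, 8.07 and 8.24 in wild-type arrays, a rise of 1.44 (adjusted p = 1.21e-05 in limma). Smpdl3b read 10.03, 10.02, 10.01 and 9.96 in D1709A arrays and 8.74, 8.74, 8.81 and 8.83 in wild-type arrays, a rise of 1.22 (adjusted p = 1.83e-06 in limma). Neither gene's groups overlapped, and the eGFP means were 9.64 for Hpdl and 10.67 for Smpdl3b, further from wild-type than D1709A was. Dapp1, an adaptor protein of B cell receptor signalling, behaved likewise, with 9.13, 9.12, 9.0 and 8.93 in D1709A arrays and 7.75, 7.74, 7.68 and 7.87 in wild-type arrays (difference, 1.28). Its eGFP mean was 9.52.

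Lefty1, a secreted inhibitor of Nodal and a known target of miR-290 and miR-302 miRNAs, read 10.24, 10.20, 10.11 and 10.79 in D1709A arrays and 9.09, 9.16, 9.0 and 8.48 in wild-type arrays. It rose by 1.40 (SE, 0.18, adjusted p = 5.15e-04 in limma), with no overlap. The difference was 1.10 in arrays 1 to 3 and 2.31 in arrays 4, and the eGFP mean was 11.55 ± 0.05. D1709A thus lay between wild-type DICER1 and the eGFP vector.

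Cyclin D2, Ccnd2, which drives entry into S phase, read 10.01, 10.03, 9.95 and 9.49 in D1709A arrays and 8.45, 8.35, 8.48 and 8.93 in wild-type arrays, a rise of 1.32 (adjusted p = 2.84e-04 in limma) without overlap. Its difference was 1.57 in arrays 1 to 3 and 0.56 in arrays 4, and array 4 of each group lay closer to the other group. Ascl2, an imprinted transcription factor needed in the trophoblast, had the same shape, with 8.83, 8.85, 8.82 and 8.40 in D1709A arrays and 7.41, 7.38, 7.42 and 7.83 in wild-type arrays.

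The other genes among the 15 largest rises were Mcc, a gene mutated in colorectal cancer (1.35), Fndc3c1 (1.34), the vitamin C transporter Slc23a1 (1.26), the lysophosphatidic acid receptor Lpar4 (1.22) and Rsph4a, a radial spoke protein of cilia (1.20). Next came Chrna9, a nicotinic receptor subunit (1.19), the fatty acid transporter Slc27a2 (1.16) and the amino acid transporter Slc6a14 (1.15). Adjusted p in limma ranged over the 15 rises from 1.83e-06 to 0.00368, and none had overlapping groups, where 33.8% of all genes had none. Fndc3c1 rested on arrays 1 to 3, with a difference of 1.77 there and 0.052 in arrays 4. Lpar4 differed by 1.48 in arrays 1 to 3 and 0.44 in arrays 4, Rsph4a by 1.49 and 0.34 and Slc6a14 by 1.39 and 0.42. For 9 of the 15 the D1709A mean lay between wild-type DICER1 and the eGFP vector, for 4 it lay past the eGFP vector, and for Spink1 and Fndc3c1 the eGFP mean was on the other side of wild-type. Among all 33 genes called and raised 2-fold, it lay between for 14 and past for 16. The eGFP mean was on the other side for 3.

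The largest fall among the ranked genes was in A2m, alpha-2-macroglobulin, a broad protease inhibitor of plasma. It read 6.97, 6.79, 6.98 and 7.64 in D1709A arrays and 9.66, 9.51, 9.43 and 8.81 in wild-type arrays, and fell by 2.26 (SE, 0.22, adjusted p = 1.21e-04 in limma). The groups did not overlap, and array 4 of each group was the one nearest to the other group. The eGFP mean was 7.67 ± 0.10.

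Nppb, the natriuretic peptide that stretched heart muscle secretes, read 7.52, 7.50, 7.51 and 7.21 in D1709A arrays and 9.40, 9.33, 9.44 and 9.69 in wild-type arrays, and fell by 2.03 (adjusted p = 5.73e-06 in limma). Here the arrays 4 were farthest apart, with differences of -1.88 in arrays 1 to 3 and -2.49 in arrays 4. D1709A was also under the eGFP mean of 8.18 ± 0.088.

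Nab2, a corepressor that binds EGR factors and is itself induced with them, read 8.76, 8.77, 8.76 and 9.11 in D1709A arrays and 10.91, 10.94, 10.98 and 10.60 in wild-type arrays. It fell by 2.01 (adjusted p = 7.62e-06 in limma), with differences of -2.18 in arrays 1 to 3 and -1.50 in arrays 4. D1709A was under the eGFP mean of 9.34 ± 0.075, and the D1709A and wild-type arrays did not overlap.

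The zinc exporter Slc30a1 was steady within groups, at 8.38, 8.33, 8.40 and 8.48 in D1709A arrays and 9.82, 9.90, 9.93 and 9.77 in wild-type arrays, and fell by 1.46 (adjusted p = 1.93e-06 in limma). Srgn, the proteoglycan serglycin, read 7.21, 7.18, 7.21 and 6.53 in D1709A arrays and 8.40, 8.27, 8.33 and 9.0 in wild-type arrays and fell by 1.47 (adjusted p = 6.36e-04 in limma). Both genes were without overlap, and Srgn was the more uneven, with -1.14 in arrays 1 to 3 and -2.47 in arrays 4.

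The remaining large falls were Prelid2 (-1.73), the brain-type aldolase Aldoc (-1.49), the phospholipase Pla2g4c (-1.48), Copz2, a coatomer subunit gene (-1.41), Kdelr3, a receptor that returns proteins to the endoplasmic reticulum (-1.31), and Rbm44, an RNA-binding protein of germ cells (-1.29). Phlda1, Dazl, Egr1 and Hbegf complete the 15 and are described with their lists. Prelid2 differed by -2.16 in arrays 1 to 3 and -0.43 in arrays 4, Kdelr3 by -1.65 and -0.30 and Rbm44 by -1.64 and -0.24. Adjusted p in limma ranged over the 15 falls from 1.83e-06 to 0.00169, and none had overlapping groups. The D1709A mean lay past the eGFP mean for 10 of them and between wild-type and eGFP for 5. Among all 48 genes called and lowered 2-fold, it lay past for 25 and between for 22. The eGFP mean was on the other side of wild-type for 1.

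**Figure D2:**
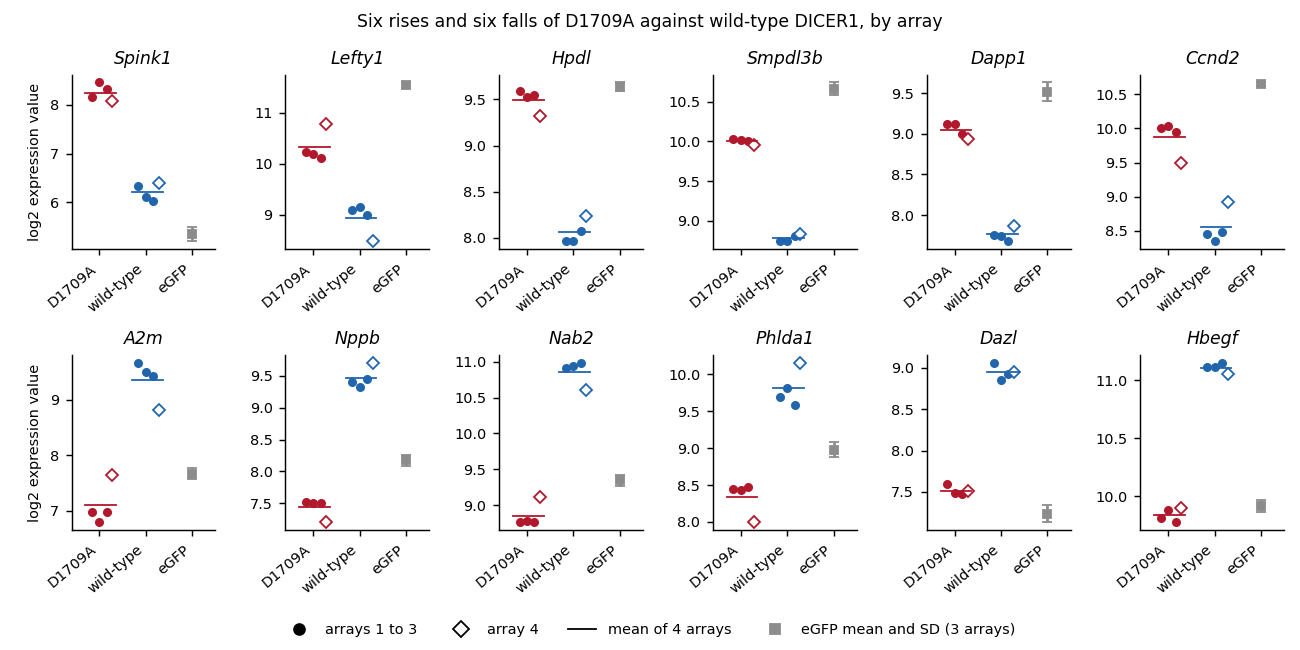
Log2 expression values of 6 genes that rose (top) and 6 that fell (bottom) in D1709A and wild-type DICER1, with dots for arrays 1 to 3, an open diamond for array 4, a line at the mean of 4 arrays, and the eGFP mean with its SD (n = 3). In none of the 12 panels do D1709A and wild-type arrays overlap, and the axes differ between panels and do not start at 0.

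Genes were then read by 27 lists, each against the share of all genes called, which was 19.11% higher and 18.52% lower over 4 arrays. Over all genes tested the median difference was -6.07e-03. ERK output and immediate early genes, which growth factor signalling through the ERK kinases switches on, were mostly lower. Of 25 tested members 16 fell and 1 rose, and the median difference was -0.43. Without the arrays 4, 17 fell and 7 rose, against 29.69% of all genes lower and 32.19% higher in that comparison, the shares that hold for each count in arrays 1 to 3 below. The mean level of the list was 8.92 to 9.10 in D1709A arrays, 9.50 to 9.69 in wild-type arrays and 8.99 to 9.03 with the eGFP vector, so that the D1709A and wild-type ranges did not overlap.

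Hbegf, the single growth factor of the list that was tested, and the receptor gene Plaur fell. Hbegf, an EGF receptor ligand, read 9.81, 9.88, 9.78 and 9.90 in D1709A arrays and 11.12, 11.12, 11.15 and 11.06 in wild-type arrays, a fall by 1.27 (adjusted p = 1.83e-06 in limma) that was -1.31 in arrays 1 to 3 and -1.16 in arrays 4. The urokinase receptor gene Plaur differed by -0.84 (-0.47 in arrays 1 to 3 and -1.94 in arrays 4). Of the transcription factors, Egr1 read 8.07, 8.12, 8.06 and 8.42 in D1709A arrays and 9.60, 9.68, 9.64 and 9.30 in wild-type arrays and fell by 1.38 (adjusted p = 4.52e-05 in limma) without overlap. Egr2 differed by -0.85, Egr3 by -0.40, Fosl1 by -0.82, Jun by -0.74, Fos by -0.58 and Junb by -0.43, all called. Jun differed by -0.94 in arrays 1 to 3 and -0.15 in arrays 4.

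Negative regulators that ERK signalling induces against itself fell in part. Phlda1, a pleckstrin homology-like protein, read 8.45, 8.43, 8.48 and 8.0 in D1709A arrays and 9.69, 9.82, 9.58 and 10.15 in wild-type arrays and fell by 1.47 (adjusted p = 1.20e-04 in limma), past the eGFP mean of 8.98. The ERK phosphatases Dusp5 and Dusp6 changed by -0.94 and -0.46, and the Sprouty inhibitors Spry4 and Spry2 by -0.98 and -0.39. Dusp6 differed by -0.24 in arrays 1 to 3 and -1.12 in arrays 4 and Spry2 by -0.25 and -0.81. Dusp4 (-0.43), Spry1 (0.16), Spred1 (0.052), Etv4 (0.41), Etv5 (-0.052) and Myc (-0.017) were not called, and Etv1, an ETS factor, rose by 0.73. Of the 16 genes that fell, 15 were lower in both array sets, where 82.6% of all called genes had the same sign in both. The exception Spred2 differed by -0.20 in arrays 1 to 3 and 0.00 in arrays 4.

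**Figure D3:**
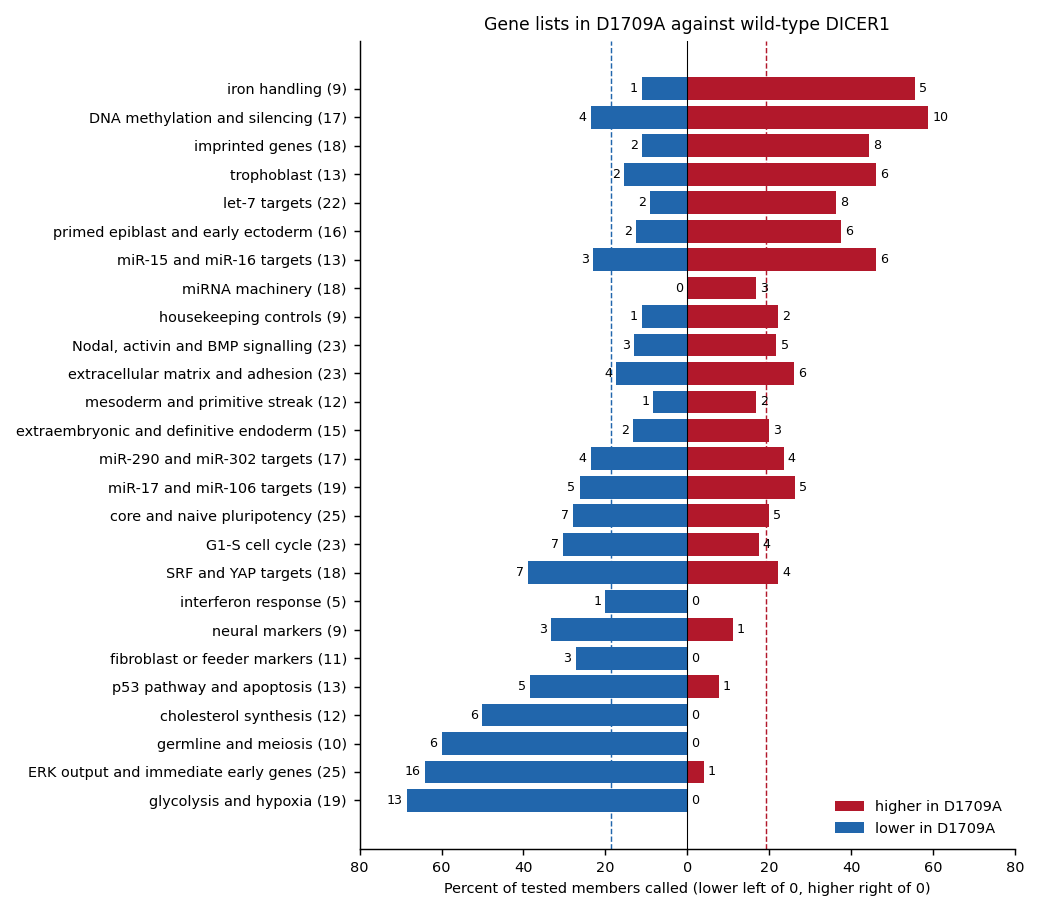
Percent of the tested members of 26 lists (number tested in brackets) that were called higher (red, right of 0) or lower (blue, left) in D1709A than in wild-type DICER1, with the number of genes at each bar. Dashed lines mark the shares over all genes, 19.11% higher and 18.52% lower, and the lists of glycolysis and hypoxia, ERK output, and germline genes reach furthest to the lower side.

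Germline and meiosis genes fell or were not called. Of 10 tested members 6 fell and 0 rose, with a median of -0.41, where 18.52% of all genes were lower and 19.11% higher. All 6 were lower in both array sets, where 82.6% of all called genes had the same sign in both. In arrays 1 to 3 alone, 6 fell and 3 rose. The list mean was 7.84 to 8.07 in D1709A arrays, 8.41 to 8.64 in wild-type arrays and 7.84 to 7.97 with the eGFP vector.

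Dazl, an RNA-binding protein that germ cells need, read 7.59, 7.49, 7.48 and 7.51 in D1709A arrays and 9.06, 8.86, 8.93 and 8.96 in wild-type arrays, a change of -1.43 (SE, 0.054, adjusted p = 1.93e-06 in limma). Sycp3, a protein of the axis of meiotic chromosomes, read 7.61, 7.81, 7.57 and 7.85 in D1709A arrays and 9.07, 8.90, 9.06 and 8.82 in wild-type arrays and fell by 1.25 (adjusted p = 2.49e-05 in limma). Neither gene's groups overlapped, and the differences of Dazl in arrays 1 to 3 and in arrays 4 were -1.43 and -1.45. Tex19.1, which restrains transposons in germ cells, differed by -0.74, Hormad1, a meiotic chromosome protein, by -0.57, and Mael and Mov10l1, of the piRNA pathway, by -0.44 and -0.38. The meiotic cohesin gene Stag3, not on the list, read 8.68, 8.76, 8.61 and 8.73 in D1709A arrays and 9.96, 9.90, 9.98 and 9.89 in wild-type arrays (-1.24). Ddx4 (-0.15), Sycp1 (-0.14), Piwil2 (0.073) and Tdrd1 (0.15) were not called, and of these Ddx4, Piwil2 and Tdrd1 had opposite signs in the array sets.

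Germline promoters often hold the E-box CACGTG, a palindrome that reads the same on both strands and is bound by the MAX and MGA repressors among others, so it was searched in RefSeq promoters (250 bases before to 50 after the gene start). Of the 6 genes that fell 4 held it, as did 3 of 3 matched members that were not called, against 8.09% of 27025 genes with a promoter in the table. Dazl and Tex19.1 had no such letters in this window. Stretches of 3 of the 4 promoters are shown with the E-box in capitals (GRCm38.p6, on the strand of the gene): Sycp3 at chr10:88459506-88459545 (plus), Hormad1 at chr3:95559603-95559642 (plus) and Mael at chr1:166238945-166238984 (minus).
Sycp3: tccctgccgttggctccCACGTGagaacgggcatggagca
Hormad1: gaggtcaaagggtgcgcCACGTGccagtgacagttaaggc
Mael: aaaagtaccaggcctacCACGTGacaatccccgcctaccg
The motif began -64, -57 and -223 bases from the gene start. A match describes the letters only, and binding was not measured.

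Genes of glycolysis and the hypoxia response, which HIF transcription factors switch on when oxygen is low, also fell. Of 19 tested members 13 fell and 0 rose, or 68.4% called beside 37.6% of all genes, with a median of -0.45. With arrays 1 to 3 only, 15 fell and 1 rose. Of the 13 that fell, 10 were lower in both array sets, where 82.6% of all called genes had the same sign in both. The list median was -0.46 in arrays 1 to 3 and -0.14 in arrays 4. The list mean was 10.67 to 10.94 in D1709A arrays, 11.05 to 11.28 in wild-type arrays and 10.40 to 10.44 with the eGFP vector.

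Among the enzymes, the phosphofructokinase gene Pfkp read 10.12, 10.16, 10.06 and 10.56 in D1709A arrays and 11.34, 11.37, 11.30 and 10.90 in wild-type arrays, a fall by 1.0 (adjusted p = 5.96e-04 in limma), and its arrays 4 differed by -0.34. The groups did not overlap. Phosphoglycerate kinase Pgk1 differed by -0.54 and Pfkl by -0.58, while Aldoa, Pkm and Ldha, called as well, differed by -0.23, -0.14 and -0.12. Pgk1 is also among the 9 housekeeping controls, of which 2 rose (Ppia by 0.068 and Rplp0 by 0.064) and 1 fell. That was 33.3% called, beside 37.6% of all genes.

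Among the HIF targets with other roles, Ero1a, an oxidase for protein folding, read 11.10, 11.08, 11.07 and 11.50 in D1709A arrays and 12.16, 12.09, 12.13 and 11.71 in wild-type arrays and fell by 0.84 (adjusted p = 9.97e-04 in limma). Egln1, an oxygen-sensing prolyl hydroxylase, changed by -0.64, and Ankrd37 and Higd1a by -0.55 and -0.47. Bnip3, a mitophagy receptor, fell by 1.70 over 4 arrays and rested on arrays 1 to 3, with 9.98, 9.97, 9.93 and 11.12 in D1709A arrays and 12.27, 12.19, 12.26 and 11.08 in wild-type arrays. Its groups overlapped, since the arrays 4 differed by 0.038. Egln3 was not called (adjusted p = 0.0673 in limma) and had opposite signs, -1.46 in arrays 1 to 3 and 0.84 in arrays 4. The glucose transporters Slc2a1 and Slc2a3 and the hexokinases Hk1 and Hk2 were within -0.063 and 0.074 of wild-type and were not called.

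The core letters of HIF binding sites, ACGTG on either strand, were searched in the same promoter windows. They stood in 9 of the 12 genes that fell and had a promoter in the table and in 5 of 5 that were not called, against 21.8% of all genes. Every CACGTG holds ACGTG, so the search overlaps the one for the E-box. Stretches of the promoters of 3 genes that fell are shown with the core in capitals, CACGT being the core read on the other strand: Bnip3 at chr7:138909593-138909631 (minus), Ero1a at chr14:45318614-45318652 (minus) and Egln1 at chr8:124949301-124949339 (minus), all GRCm38.p6.
Bnip3: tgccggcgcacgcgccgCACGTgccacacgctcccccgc
Ero1a: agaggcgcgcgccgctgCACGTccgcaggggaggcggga
Egln1: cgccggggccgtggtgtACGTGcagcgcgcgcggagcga
The core began -108, -63 and -68 bases from the gene start. In Bnip3 the letters read CACGTG, so the core stands there on both strands and the site is also the E-box searched above.

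Of 17 regulators of DNA methylation and chromatin silencing 14 were called, beside 37.6% of all genes, with 10 higher and 4 lower and a median of 0.24. Without the arrays 4, 11 rose and 4 fell. The de novo methyltransferase Dnmt3b read 10.92, 10.96, 10.97 and 10.49 in D1709A arrays and 9.74, 9.74, 9.79 and 10.22 in wild-type arrays, a rise of 0.96 (adjusted p = 8.49e-04 in limma) without overlap, of which 1.19 was seen in arrays 1 to 3 and 0.28 in arrays 4. Dnmt3a rose by 0.51, the histone methyltransferases Ehmt1 and Ehmt2 by 0.55 and 0.42, Setdb1 by 0.27, the CpG-binding demethylase Kdm2b by 0.73, the maintenance methyltransferase Dnmt1 by 0.15 and the oxidase Tet3 by 0.24. The Polycomb genes Suz12 and Ezh2 changed by -0.42 and -0.19, and Tet2 and Zfp57 by -0.39 and -0.073. Dnmt3l, a cofactor of Dnmt3a, and the corepressor Trim28 rose over 4 arrays (0.28 and 0.26) but were -0.13 and -0.12 in arrays 4. Dnmt3a differed by 0.62 in arrays 1 to 3 and 0.19 in arrays 4, Kdm2b by 0.89 and 0.23 and Tet2 by -0.50 and -0.059.

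Of 18 imprinted genes, which are expressed from 1 parental copy, 8 rose and 2 fell, with a median of 0.24. The share called was 55.6%, beside 37.6% of all genes. Mest, an imprinted hydrolase gene, read 12.21, 12.21, 12.22 and 11.64 in D1709A arrays and 11.0, 10.99, 10.97 and 11.56 in wild-type arrays, a rise of 0.94 that was 0.083 in arrays 4. Peg3, a zinc finger gene, and Nnat, neuronatin, differed in both sets, by 0.59 and 0.79 in arrays 1 to 3 and 0.90 and 0.50 in arrays 4. Igf2r (-0.27) and Sgce (-0.29) fell, and Igf2, Dlk1, Meg3 and Phlda2 were not called (0.42, 0.08, 0.041 and -0.14).

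**Figure D4:**
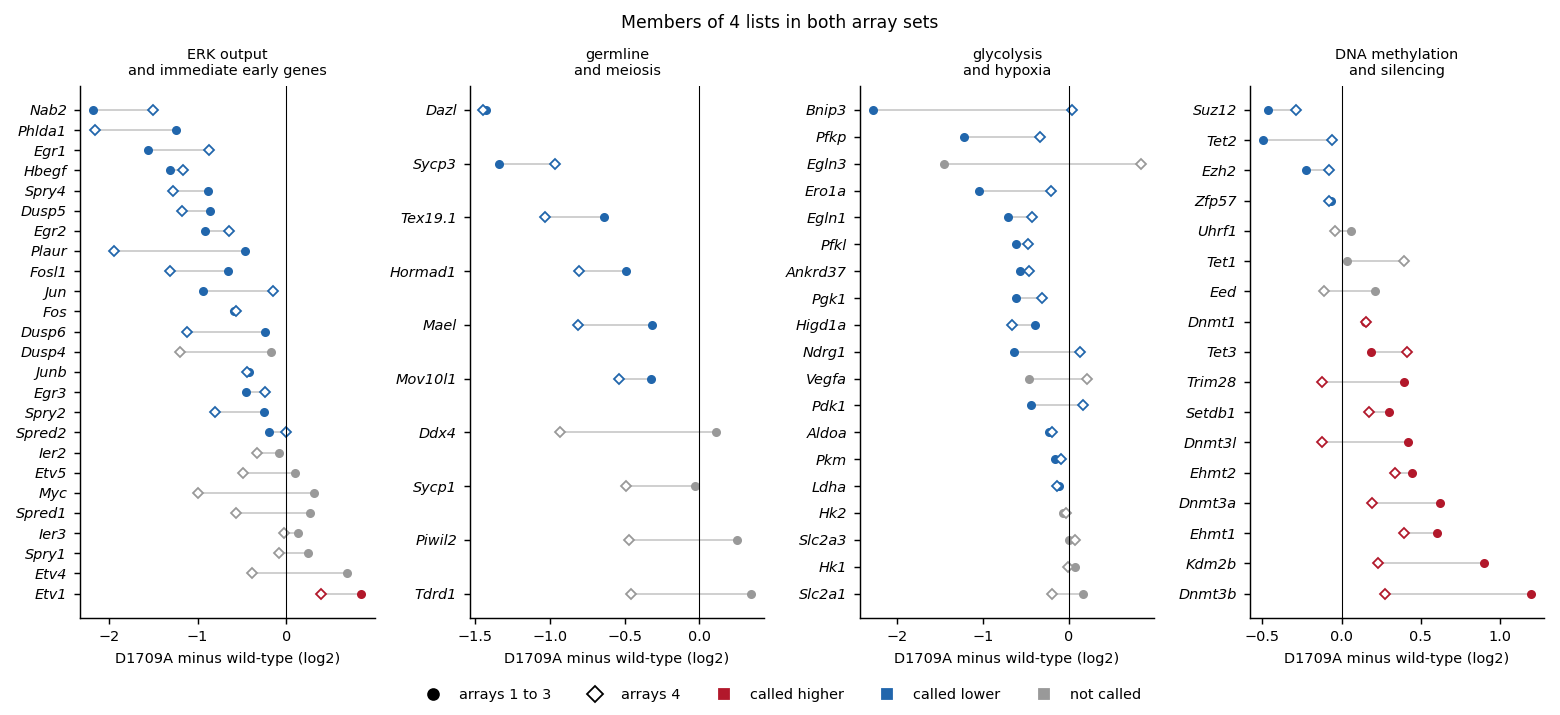
D1709A minus wild-type difference (log2) of every tested member of 4 lists, with dots for arrays 1 to 3 and open diamonds for arrays 4, in red where called higher over 4 arrays, blue where called lower and grey where not called. The germline genes from Dazl to Mov10l1 are lower in both array sets, while Bnip3, Ndrg1 and Pdk1 are lower in arrays 1 to 3 only.

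Reported targets of ES cell miRNAs were read by the arm of the miRNA. Of 17 miR-290 and miR-302 targets, whose regulators' active strands come from the 3-prime arm, 4 rose and 4 fell, or 47.1% called beside 37.6% of all genes, with a median of 0.010. Lefty1 and Lefty2 had the largest rises, and Lefty2 read 8.58, 8.72, 8.65 and 8.58 in D1709A arrays and 7.77, 7.68, 7.61 and 7.76 in wild-type arrays (rise, 0.93, adjusted p = 1.34e-05 in limma; eGFP mean, 10.01). Tgfbr2 and Lats2 rose by 0.28 and 0.22. Arid4b, Casp2, Dkk1 and Ei24 fell, Arid4b by 0.64 with 0.0002 in arrays 4. Lats2 differed by 0.29 in arrays 1 to 3 and 0.0098 in arrays 4, Casp2 by -0.57 and -0.033, Ei24 by -0.29 and -0.0006 and Dkk1 by -0.23 and -0.88. Rbl2 (-0.08), Btg2 (-0.059) and Bmi1 (0.15) were not called. The mean of this list was 9.17 to 9.25 in D1709A arrays, 9.09 to 9.16 in wild-type arrays and 9.66 to 9.74 with the eGFP vector, so both DICER1 groups lay under the vector.

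Of 22 reported let-7 targets, a family of the 5-prime arm, 8 rose and 2 fell. The median was 0.13 (0.24 in arrays 1 to 3 and -0.15 in arrays 4), and 45.5% were called beside 37.6% of all genes. In arrays 1 to 3 alone, 15 rose and 3 fell, where 32.19% of all genes were higher and 29.69% lower. The oncofetal gene Hmga2 rose by 0.35, Lin28b, which blocks let-7 maturation, by 0.52 and its paralog Lin28a by 0.53. Lin28a differed by 0.69 in arrays 1 to 3 and 0.051 in arrays 4. Lin28b read 8.49, 8.53, 8.45 and 8.49 in D1709A arrays and 7.99, 8.03, 7.90 and 7.97 in wild-type arrays, with no overlap and nearly the same difference in both array sets (0.52 and 0.51). Trim71 (-0.26), Igf2bp1 (0.36) and Arid3b (0.25) were not called, and Bach1, a repressor of antioxidant genes, fell by 0.64.

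Of 13 targets of miR-15 and miR-16, also of the 5-prime arm, 6 rose and 3 fell (median, 0.063). Of 19 targets of miR-17 and miR-106, 5 rose and 5 fell (median, 0.064), and 8 rose and 6 fell with arrays 1 to 3 only. The shares called over 4 arrays were 69.2% and 52.6%, beside 37.6% of all genes. The rises in both lists were led by D-type cyclins, which are also on the let-7 list. Ccnd1 read 11.94, 11.86, 11.87 and 11.56 in D1709A arrays and 10.74, 10.72, 10.73 and 11.07 in wild-type arrays and rose by 0.99 (adjusted p = 1.58e-04 in limma), to a level near the eGFP mean of 12.05. Their kinase partner Cdk6 rose by 0.50 and cyclin E1, Ccne1, by 0.46. Smad7, an inhibitor of TGF-beta signalling, was very even, with 10.32, 10.34, 10.30 and 10.30 in D1709A arrays and 11.07, 11.06, 11.05 and 11.08 in wild-type arrays, and fell by 0.75 (adjusted p = 2.25e-06 in limma). Txnip, an inhibitor of thioredoxin, differed by -0.66, and the kinase gene Limk1 by 0.52. Txnip differed by -0.80 in arrays 1 to 3 and -0.26 in arrays 4.

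The miRNA genes themselves were read as probe sets over the hairpins, outside the rule for named genes and chosen after their values were seen. Mir302b read 7.31, 7.51, 7.29 and 6.12 in D1709A arrays and 4.50, 4.32, 4.38 and 5.66 in wild-type arrays, and 7.61 with the eGFP vector (difference, 2.34, adjusted p = 0.00139 in limma). All wild-type values and D1709A array 4 lay under the filter level of 6.42, so the size of the difference rests on low values, and the probe set passed the filter through groups where it was high. Mir302c and Mir302d differed by 2.10 and 1.45, with 0.33 and -0.09 in arrays 4. They rest on low values too, since D1709A array 4 (5.99 and 6.36) lay under the filter level for both. So did all wild-type values of Mir302c and those of wild-type arrays 1 to 3 of Mir302d. Of the hairpins of the miR-17 cluster, Mir19b-1 (-0.74), Mir20a (-0.56), Mir19a (-0.53) and Mir18 (-0.45) fell, while Mir17 was not called (-0.25, adjusted p = 0.112 in limma). Which RNA such a probe set reads, a precursor or a longer transcript, was not tested.

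Of 18 genes of the miRNA machinery 3 rose, namely Lin28a, Lin28b and Tnrc6b (0.19), and 0 fell, so that 15 were not called, among them Drosha (0.19), Dgcr8 (0.026) and Ago2 (0.013). The share called was 16.7%, beside 37.6% of all genes (19.11% higher and 18.52% lower). With arrays 1 to 3 only, 7 rose and 3 fell. In the G1-S cell cycle list 4 of 23 rose, all cyclins or Cdk6, and 7 fell, among them Rb1 (-0.44), Ccne2 (-0.39) and E2f1 (-0.32). The share called there was 47.8%. E2f1 differed by -0.45 in arrays 1 to 3 and 0.10 in arrays 4. In the p53 list 1 of 13 rose and 5 fell, or 46.2% called, with Pmaip1, a pro-apoptotic gene, -0.52 and Apaf1, the core of the apoptosome, -0.30. Without the arrays 4, 6 p53 genes rose and 5 fell.

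In the Nodal, activin and BMP pathway 5 of 23 genes rose and 3 fell, so that 34.8% were called beside 37.6% of all genes. Without the arrays 4, 12 rose and 7 fell. The ligands Nodal (0.05) and Bmp4 (0.11) were not called, and Bmp4 had opposite differences, 0.67 in arrays 1 to 3 and -1.57 in arrays 4. The inhibitors Lefty1 and Lefty2 rose. Of the receptors, the type I receptor Acvr1b rose by 0.41 and the type II receptor Acvr2a fell by 0.43, and of the signal carriers Smad3 rose by 0.38. Acvr1b differed by 0.26 in arrays 1 to 3 and 0.85 in arrays 4. The target genes Id1, Id2 and Id3 were not called (-0.18, -0.13 and -0.018).

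Core and naive pluripotency genes went both ways, with 5 of 25 higher and 7 lower and a median of -0.048. The share called was 48.0%, beside 37.6% of all genes. Pou5f1 rose by 0.14, Nanog and Esrrb fell by 0.13 and 0.16, and Sox2 (-0.10) and Zfp42 (-0.17) were not called. Larger changes were seen in Utf1 (0.67) and Gbx2 (0.62), and in Tcl1 (-0.55), Nr5a2 (-0.50) and Tbx3 (-0.50). Pou5f1 differed by 0.22 in arrays 1 to 3 and -0.071 in arrays 4 and Nanog by -0.16 and -0.037. Utf1 differed by 0.85 in arrays 1 to 3 and 0.10 in arrays 4, Gbx2 by 0.78 and 0.13 and Tcl1 by -0.73 and -0.016. In arrays 1 to 3 alone, 9 rose and 14 fell.

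Of 16 genes of primed epiblast and early ectoderm 6 rose and 2 fell, where 19.11% of all genes were higher and 18.52% lower. With arrays 1 to 3 only, 11 rose and 2 fell, where 32.19% of all genes were higher and 29.69% lower. Both that fell, Otx2 and Zic2, are transcription factors of the epiblast and forebrain and were even across arrays. Otx2 read 9.02, 9.14, 8.87 and 9.01 in D1709A arrays and 9.95, 9.87, 10.01 and 9.94 in wild-type arrays (fall by 0.93, adjusted p = 2.02e-05 in limma), and Zic2 read 9.26, 9.19, 9.13 and 9.27 in D1709A arrays and 10.21, 10.22, 10.33 and 10.18 in wild-type arrays (fall by 1.02, adjusted p = 5.73e-06 in limma). Neither overlapped, and with the eGFP vector Otx2 was at 10.39 and Zic2 at 9.76, both above D1709A. Fgf15 and Sox11 rose by 0.63 and 0.34. Sox11 differed by 0.19 in arrays 1 to 3 and 0.81 in arrays 4. N-cadherin, Cdh2, rose by 1.07 over 4 arrays, but was -0.32 in arrays 4.

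Among lineage lists, 6 of 13 trophoblast genes rose, including Ascl2, the keratins Krt18 (0.61) and Krt8 (0.62) and Cdx2 (0.33), and Eomes (-0.63) and Tead4 (-0.18) fell. The share of trophoblast genes called was 61.5%. Krt8 differed by 0.86 in arrays 1 to 3 and -0.088 in arrays 4, Cdx2 by 0.43 and 0.031 and Eomes by -0.39 and -1.36. In the endoderm list 3 of 15 rose and 2 fell, or 33.3% called beside 37.6% of all genes, with Gata6 at 7.64, 7.64, 7.71 and 7.45 in D1709A arrays and 8.21, 8.19, 8.06 and 8.37 in wild-type arrays (-0.60). Lrp2, an endocytic receptor, differed by 1.41 over 4 arrays and by -0.22 in arrays 4. In the mesoderm list 2 of 12 rose (Wnt3 and Mixl1) and 1 fell, or 25.0% called. In the neural list 1 of 9 rose (Map2, 0.28) and 3 fell, or 44.4% called. Wnt3 differed by 0.49 in arrays 1 to 3 and 0.10 in arrays 4 and Mixl1 by 0.28 and 0.044. With arrays 1 to 3 only, 4 mesoderm genes rose and 1 fell, and 3 neural genes rose and 3 fell.

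Several groups differed mainly between the array sets. Of 18 targets of SRF and YAP, which respond to actin and cell tension, 4 rose and 7 fell, or 61.1% called beside 37.6% of all genes. The medians were 0.43 in arrays 1 to 3 and -0.75 in arrays 4. With arrays 1 to 3 only, 11 rose and 7 fell. Cnn1, the smooth muscle protein calponin, read 9.17, 9.16, 9.13 and 7.62 in D1709A arrays and 8.44, 8.53, 8.61 and 10.06 in wild-type arrays. D1709A was thus higher in arrays 1 to 3 and lower in arrays 4 (difference between the sets, -3.06). Tagln and the cardiac actin Actc1 had the same pattern, with 1.13 and 1.13 in arrays 1 to 3 and -1.36 and -1.46 in arrays 4. Ccn1 (-0.62), Ccn2 (-0.46) and Srf itself (-0.56) fell in both sets, while the receptor kinase Axl (0.58) and smooth muscle actin Acta2 (0.78) rose in both. Srf differed by -0.35 in arrays 1 to 3 and -1.19 in arrays 4.

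The iron exporter Slc40a1 read 9.79, 9.83, 9.65 and 8.48 in D1709A arrays and 7.69, 7.56, 7.53 and 8.87 in wild-type arrays, a called rise of 1.52 whose groups overlapped and that was -0.39 in arrays 4. Of 9 iron genes 5 rose and 1 fell, which was Hmox1, the enzyme that frees iron from heme (-0.84), and 5 rose and 3 fell in arrays 1 to 3 alone. The share of iron genes called over 4 arrays was 66.7%, beside 37.6% of all genes. Hmox1 differed by -0.52 in arrays 1 to 3 and -1.79 in arrays 4. Of 12 genes of cholesterol synthesis 6 fell and 0 rose, led by Cyp51 (-0.70), Insig1 (-0.68) and Idi1 (-0.49), and 10 fell without the arrays 4. Cyp51 differed by -0.86 in arrays 1 to 3 and -0.22 in arrays 4 and Insig1 by -1.0 and 0.28. The list median was -0.27 in arrays 1 to 3 and 0.077 in arrays 4. The largest positive differences between the sets were in Lrrc31, Bnip3, Egln3 and Cyp39a1. Lrrc31 read 8.18, 8.16, 7.90 and 9.50 in D1709A arrays and 9.50, 9.57, 9.55 and 8.12 in wild-type arrays.

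In the matrix and adhesion list 6 of 23 rose and 4 fell, with the integrin Itga3 0.85 and Tgfbi -0.52. The share of matrix genes called was 43.5%, near the 37.6% of all genes. Of 5 interferon genes tested 0 rose and 1 fell (Bst2, -0.28), where 19.11% of all genes were higher and 18.52% lower. Itga3 differed by 1.12 in arrays 1 to 3 and 0.05 in arrays 4. In arrays 1 to 3 alone, 8 matrix genes rose and 9 fell, and 2 interferon genes rose and 1 fell. The single two-cell-stage gene tested, Eif1a, fell by 0.34.

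D1709A was next set against the other mutants in the same vector, E1705K and D1810Y, with no wild-type array in the contrast. Of 13956 genes 1987 (14.2%) were called, and D1709A was higher for 838 of them and lower for 1149. With all arrays centred on their medians, 1057 were higher and 831 lower. There were 19 that also changed at least 2-fold, 6 higher and 13 lower, and 9 without the arrays 4. Of the 15 largest rises against wild-type 7 were called in this contrast, and of the 15 largest falls 5, beside 14.2% of all genes. These genes were ranked on the same D1709A arrays, so the counts are no independent support. A gene that was not called is not shown to be equal.

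Otx2 was lower in D1709A than in the other mutants, with 9.01 ± 0.11 (SD, n = 4) in D1709A, 10.01 ± 0.09 (n = 3) in E1705K, 10.11 ± 0.053 (n = 3) in D1810Y and 9.94 ± 0.055 (n = 4) in wild-type DICER1. The difference was -1.05 (SE, 0.051, adjusted p = 9.57e-10 in limma). The other mutants lay near or above wild-type, so the fall against wild-type was seen in D1709A and not in their means. Zic2 differed in the same direction, by -0.67 (adjusted p = 5.49e-09 in limma).

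Emp1 and Pmp22, related membrane glycoproteins, were higher in D1709A than in the other mutants. Emp1 was at 9.90 ± 0.16 in D1709A, 8.65 ± 0.052 in E1705K, 8.61 ± 0.041 in D1810Y, 10.25 ± 0.14 in wild-type DICER1 and 10.98 ± 0.038 with the eGFP vector. For Pmp22 the difference from the mutants was 1.29, with a D1709A SD of 0.45, since array 4 read 11.74 and arrays 1 to 3 between 10.77 and 10.91. D1709A was thus nearer to wild-type than the other mutants were for both genes. The imprinted antisense RNA Airn (1.22), smooth muscle actin Acta2 (1.11), annexin Anxa1 (1.07) and the matrix protein Tnc (1.05) complete the 6 largest rises.

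The GABA receptor subunit Gabra3 was at 6.55 ± 0.17 in D1709A, 7.55 ± 0.12 in E1705K, 8.15 ± 0.13 in D1810Y and 6.08 ± 0.19 in wild-type DICER1, a difference from the mutants of -1.30 (adjusted p = 4.54e-08 in limma). Fabp7, a fatty acid binding protein of neural progenitors, differed by -1.28, and its D1709A level of 6.25 ± 0.038 lay under the filter. Cysltr1 (-1.11), Srgn (-1.08) and the kinase Pim2 (-1.05) were lower as well, and for these 3 genes D1709A array 4 was lower than each of D1709A arrays 1 to 3. Against the eGFP vector, which shares the D1709A arrays with the comparisons above, 6403 genes (45.9%) were called, 3417 higher and 2986 lower in D1709A.

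**Figure D5:**
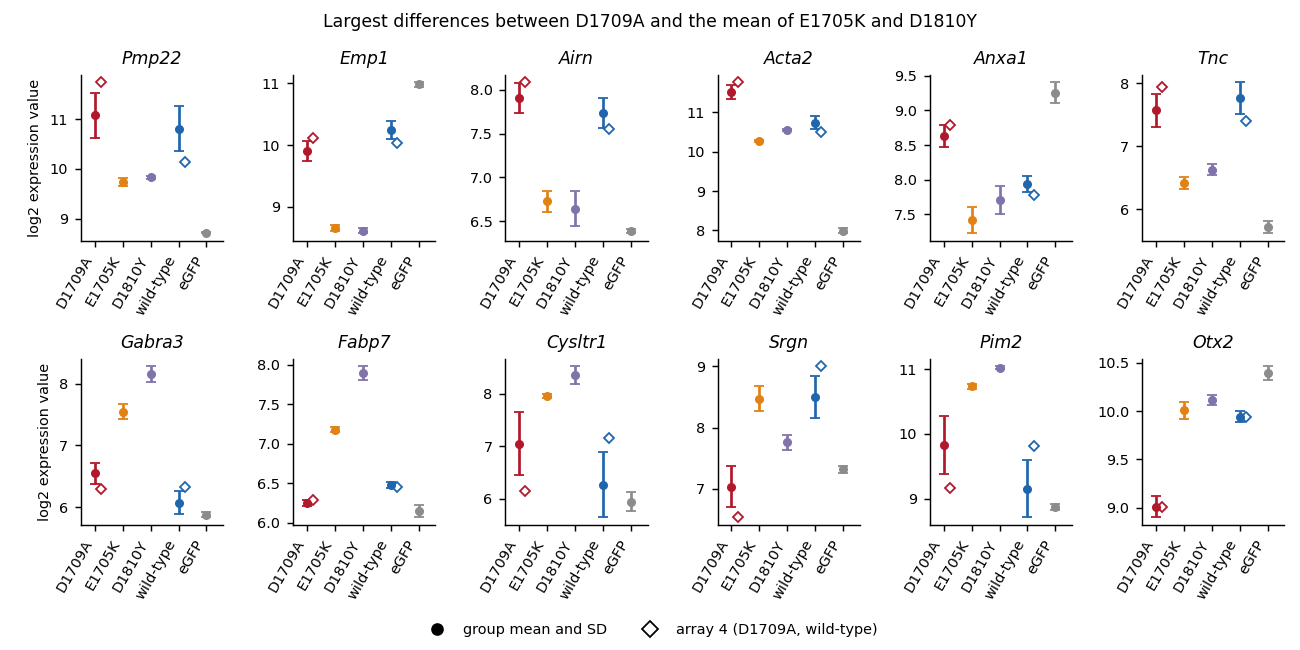
Mean and SD of log2 expression values in D1709A (n = 4), E1705K (n = 3), D1810Y (n = 3), wild-type DICER1 (n = 4) and the eGFP vector (n = 3) for the 6 genes with the largest rises (top) and falls (bottom) of D1709A against the mean of E1705K and D1810Y. Open diamonds are the arrays 4, which lie apart from the D1709A mean for Pmp22, Cysltr1 and Pim2 and close to it for Otx2 and Fabp7.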

How the data were processed

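Per the labels' protocols, the Qiagen miRNeasy kit gave total RNA and the Ambion WT expression kit was used for labelling. The authors deposited log2 values for 35556 probe sets, credited in the submitters' processing notes to RMA and Partek 6.6, whose settings no source used here states. The platform annotation gave 21789 probe sets 1 gene symbol, 1621 several and 12146 none. For each of 19938 symbols the probe set with the highest 28-array mean was kept, and those under the 30th percentile (6.42) were dropped. This left 13956 genes, 13915 of them matched to the GRCm38.p6 table. Differences were fitted in limma 3.58.1 (R 4.3.3) with a mean-variance trend to the 8 arrays, two-sided, with Benjamini-Hochberg adjustment over all genes tested. A gene was called at an adjusted p under 0.05. The 6 residual degrees of freedom are nominal, since the exact relation of the arrays 4 leaves 5. Further fits used arrays 1 to 3, the contrast between array sets, in which single arrays 4 are assumed to vary like arrays 1 to 3, and 17 arrays of 5 groups for the contrasts with E1705K, D1810Y and eGFP. The fit was tested on simulated data. Figures used Python 3.11.15, numpy 2.4.6, pandas 2.3.3 and matplotlib 3.10.9.

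The members and the 27 gene lists were chosen with earlier results of these data known, so no list is independent support for its direction. Named genes were the 15 largest called rises and falls with the same sign in both array sets, the 4 each way with the largest called difference between array sets, the 6 each way against the other mutants, Dicer1, from each list at most 4 called members, and members whose lack of a call is stated. Predicted genes, miRNA and snoRNA genes and receptor families were left out of these ranks. Further called members are named outside this rule and were chosen after their values were seen. Alternatives were other filters, centring, blocks, the mean of a gene's probe sets, no trend, all 28 arrays, and leaving out each array. The exact relations also tie array 1 of D1709A and wild-type to those of other groups. No background level was measured.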

Additional observations from a re-analysis of the deposited data

Results flagged for a closer look

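Among the 30 genes with the largest changes, array 4 lay far from the other 3 arrays of its group for several, by the gap to the nearest array over the range of the group. In D1709A the ratio was 0.853 for Mcc, 0.847 for Ccnd2, 0.924 for Ascl2, 0.931 for Nppb, 0.969 for Nab2, 0.859 for Prelid2, 0.897 for Phlda1 and 0.949 for Srgn. In wild-type DICER1 it was 0.913 for Ascl2, 0.96 for Prelid2, 0.904 for Aldoc and 0.888 for Rbm44. All of these pass Dixon's critical value for 4 samples, which chance passes in about 1 in 20 groups. Across all genes tested it was passed in 13.7% of groups. The deviation of array 4 from arrays 1 to 3 in D1709A is the negative of that in wild-type DICER1. The flags of both groups are thus not independent.

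The difference between D1709A and wild-type DICER1 was itself different in arrays 4 and in arrays 1 to 3 for 7471 genes by the test of that difference in limma. The largest were Lrrc31 (2.846), Bnip3 (2.315), Egln3 (2.292) and Cyp39a1 (2.042), more positive in arrays 4, and Cnn1 (-3.06), Actc1 (-2.588), Slc40a1 (-2.546) and Tagln (-2.488), more negative. The spread in that test is that of arrays 1 to 3 only. The cause was not tested, and culture, batch and processing cannot be told apart for 1 array per group.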

How the results depend on the processing

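Of 199 named or listed results of the main comparison, Dicer1 and genes that were called, 0 changed direction under the alternatives run, which did not include arrays 4 alone. That count checks little. The blocks, filters and trend setting leave a difference as it was, and arrays 1 to 3 make up most of it. Among 173 called list members, 21 had opposite signs in arrays 1 to 3 and in arrays 4. Of the 185 tested list members that were not called, 44 had another sign with arrays 1 to 3 only, among them Cnn1, Ddx4, Myc, Etv5, Id3 and Btg2. Centring each array ended 10 of the calls among the 199 results, including Pdgfra, Pdgfrb, Tead4 and Zfp57 of the genes named here. The count of genes called, 5252, was 8636 with arrays 1 to 3 only, and 3322 with the array sets as a block of 3 levels. A block for arrays 4, chosen after the data were seen, is 0 within rounding for every gene by their exact relation and checks nothing. The number of genes called and changed 2-fold, 81, was 189 with arrays 1 to 3 only. Leaving out 1 array gave 4031 to 6028 called genes and 71 to 116 changed 2-fold, 7953 to 8616 called in arrays 1 to 3, 7015 to 7749 for the difference between array sets, and 5615 to 6626 against the eGFP vector. Against E1705K and D1810Y it gave 1647 to 1785 called and 9 to 22 changed 2-fold, and with arrays 1 to 3 only 3160 were called and 9 changed 2-fold, where all arrays gave 1987 and 19. Whether the same replicate numbers pair the groups cannot be read from the deposited values. Correlations of deviations were -0.31, -0.13 and -0.061 for arrays 1, 2 and 3, fitted within each group. However, the exact relations tie array 1 of both groups to other groups, so a shared part may have been removed. With the number as a replicate block 1944 genes were called. Of the 199 results 125 kept their side of the threshold under that block and 74 did not. With 1 array left out, it was kept 1466 times and lost 126 times over the same results. Fewer residual degrees of freedom under each block are part of its construction, and the cause of the higher count in arrays 1 to 3 was not tested, though the median SD within groups was smaller there. The number of arrays limits what could be called.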
